A study of Homo sapiens with 18 samples.

Results

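The serpins were described here as 28 genes whose symbol follows the family's naming pattern (SERPIN, a clade letter from A to I and a number) in at least 1 of 3 deposited comparisons of knockout with wild-type MCF10A cells, out of 19401 genes listed in all. Clade B, the mostly intracellular serpins, gave 12 of them, clade A 7, clades E and F 2 each, and clades C, D, G, H and I 1 each. SERPINA7, SERPINA11, SERPINA12, SERPINB11 and SERPINI2, which RefSeq also lists as protein-coding genes of this pattern, were not analysed here. MCF10A is a non-tumorigenic human mammary epithelial line that grows in medium with horse serum, EGF, insulin, hydrocortisone and cholera toxin, which all groups shared. The CBFB KO group (3 libraries) was compared with 3 WT libraries, and RUNX1 KO1 and RUNX1 KO2 (4 libraries each) were both compared with another set of 4 WT libraries. Per the study's methods, lines were grown from single cells after CRISPR deletion, so RUNX1 KO1 and RUNX1 KO2 are called clones here, and how many clones gave the CBFB KO libraries is not given in the sources used here. A clone and its deletion cannot be told apart, and the RUNX1 comparisons share their controls and are set side by side only. The labels call the libraries of a group repeats and name no separate cultures, so a p-value covers the spread between those libraries, which may be technical.

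A serpin folds into a metastable shape that presents a loop as bait. When a target protease cuts the loop, the serpin snaps into a more stable form and drags the trapped protease with it, so that each molecule is used once. Family members restrain the plasminogen activators, the coagulation and complement proteases, neutrophil elastase and the cathepsins, while a few, such as the collagen chaperone SERPINH1 and the epithelial protein SERPINB5 (maspin), do not act as classical protease inhibitors. The RUNX transcription factors contact DNA at a short core site, and CBFB joins them without touching DNA itself.

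For each gene the deposited tables give 1 mean normalised read count over all libraries of a comparison and a log2 fold change of knockout against WT with its standard error (SE), so no value per library can be shown. The levels of the 2 groups given below are those implied by the mean and the fold change. A gene was called where the DESeq2 adjusted p was under 0.05 and the change was at least 2-fold. Of the 28 serpins, 21 had an adjusted p in at least 1 comparison and 17 in all 3. The number tested was 18 with CBFB KO, 21 with RUNX1 KO1 and 19 with RUNX1 KO2. The means summed to between 16467400 and 20214400 normalised reads a comparison. Genes whose mean reached 100 had a median SE of 0.12 with CBFB KO, 0.10 with RUNX1 KO1 and 0.21 with RUNX1 KO2, so small changes were resolved least in RUNX1 KO2. CBFB mRNA fell by 4.88 ± 0.14 (SE) on the log2 scale in CBFB KO, whereas RUNX1 mRNA was not lower in the RUNX1 clones (0.54 ± 0.09 and 0.46 ± 0.13), so the mRNA does not check the RUNX1 label. At the protein level, the study reports RUNX1 deletion in MCF10A cells by immunoblot, and a loss of RUNX1 protein in CBFB KO cells too. The defining basal epithelial marker KRT5 had means of 87894 to 101688. Leukocyte PTPRC and CD3E, endothelial PECAM1 and CDH5, and fibroblast COL1A2 stood below 1 wherever they were listed. Of 3 fibroblast markers tested, COL1A1 was called higher in each knockout (log2 fold changes of 1.40, 1.75 and 1.36) and DCN lower, and the list's summed implied level was 147 to 169 in WT and 346 to 476 in the knockouts. The leukocyte list summed to 143 to 233 in WT and 180 to 374 in the knockouts, nearly all of it CD68. Of 3 luminal markers, KRT8 was called higher in CBFB KO and RUNX1 KO2 (1.36 and 1.01) and rose by 0.44 in RUNX1 KO1 (adjusted p = 6.05e-04). In CBFB KO, ESR1 and GATA3 stood at -0.56 and -0.33 (adjusted p = 0.0665 and 0.0991), and GATA3 fell in RUNX1 KO1 (-0.26, adjusted p = 0.0360). The luminal list summed to 3892 to 7888 in WT and 9363 to 15596 in the knockouts, nearly all of it KRT8. The part of these markers in the serpin results was not tested.

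The core site bound by RUNX proteins was searched for, as TGTGGT or TGCGGT on both strands, in the 250 bases before each start site in RefSeq's promoter table (GRCh38.p14; the deposited tables were made on hg19). Windows were found for 23 of the 28 members, 34 windows in all, and none for SERPING1, SERPINF1, SERPINF2, SERPINC1 and SERPINB10. The letters stood in 10 of the 34 windows, against 16.3% of all 35116 windows. TGANTCA, a looser form of the AP-1 letters TGACTCA and TGAGTCA, stood in 8 (6.57% of all). TATAAA stood in 5 (10.7%) and TTCNNNGAA, the letters bound by STAT proteins, in 6 (6.57%). Several of these windows are close or near-identical copies. A match of letters is a description of the window, not a bound site. The stretches below, 5′ to 3′ on the gene's own strand, belong to 4 members that the results turn on. Each is the longest run of the window outside any GENCODE exon, with RUNX, TGANTCA and TATAAA letters in capitals.
SERPINA1 (chr14:94390694-94390885, minus strand, called lower in all 3 comparisons): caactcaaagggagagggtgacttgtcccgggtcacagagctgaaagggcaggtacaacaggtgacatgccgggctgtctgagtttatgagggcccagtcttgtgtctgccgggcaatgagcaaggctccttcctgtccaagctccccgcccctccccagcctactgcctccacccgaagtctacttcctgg
SERPINA3 (chr14:94612141-94612296, plus strand, called higher in both RUNX1 clones): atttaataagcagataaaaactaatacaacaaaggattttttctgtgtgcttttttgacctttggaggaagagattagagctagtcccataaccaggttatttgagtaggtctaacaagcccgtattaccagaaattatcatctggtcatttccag
SERPINB2 (chr18:63887455-63887699, plus strand, called higher in both RUNX1 clones): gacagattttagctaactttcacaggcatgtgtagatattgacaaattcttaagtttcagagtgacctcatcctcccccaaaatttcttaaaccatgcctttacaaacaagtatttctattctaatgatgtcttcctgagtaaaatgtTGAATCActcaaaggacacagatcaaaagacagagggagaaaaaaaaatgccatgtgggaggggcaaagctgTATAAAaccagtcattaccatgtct
SERPINB1 (chr6:2842007-2842113, minus strand, higher in every comparison at the adjusted p alone): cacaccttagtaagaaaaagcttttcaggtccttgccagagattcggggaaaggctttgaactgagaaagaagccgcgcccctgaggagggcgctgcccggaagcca
Of these 4, only the SERPINB2 stretch held any of the marked letters. They were TGANTCA, in the looser form TGAATCA, from position -102 and TATAAA from position -30 counted from the start site. SERPINA1 has another start site, and the window before that one carried the RUNX letters at position -233. That window and the window of SERPINI1 lie wholly within annotated exons and are not printed. SERPINB13 had the RUNX letters at positions -219 and -132, SERPINB9 at -35, and SERPINB3 and SERPINB4 at -62 in windows that are identical at 247 of 250 bases. The letters also stood in a window of SERPINB6 (-182), SERPINE3 (-176), SERPINA5 (-39), SERPINA6 (-241 and -11) and SERPINA9 (-250).

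A group of 3 highly expressed genes held most of the implied reads of the 28 serpins in every group: SERPINB5, SERPINH1 (HSP47), the procollagen chaperone of the endoplasmic reticulum, and SERPINB6, an intracellular inhibitor of cathepsin G. Together they held 86.5% of these reads in the WT cells of the CBFB comparison and 84.1% in those of the RUNX1 comparisons as normalised with RUNX1 KO1, and between 79.7% and 83.7% in the knockouts. SERPINB5 alone held 57.8% and 48.3% in these WT cells and SERPINH1 20.9% and 24.5%. Per kilobase of the longest transcript, SERPINB5 stood first of the 28 in WT cells, at 4060 implied normalised reads in the CBFB table and 2981 in the RUNX1 KO1 table, and SERPINH1 second, at 1162 and 1195. The tables were normalised separately, and without values per library it cannot be said which neighbours in this order differ beyond their spread. Then came SERPINB6, SERPINB8, SERPINB1 and SERPINE2, between 112 and 346 per kilobase in these tables, and below them SERPINB2, SERPINI1, SERPINA3 and SERPINA1, between 21.7 and 66.7. The 28 serpins together held 0.0982% of all implied reads in WT cells and 0.108% in CBFB KO, against 0.0924% in WT cells and 0.126% in RUNX1 KO1, and 0.09995% and 0.117% for RUNX1 KO2.

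**Figure D1:**
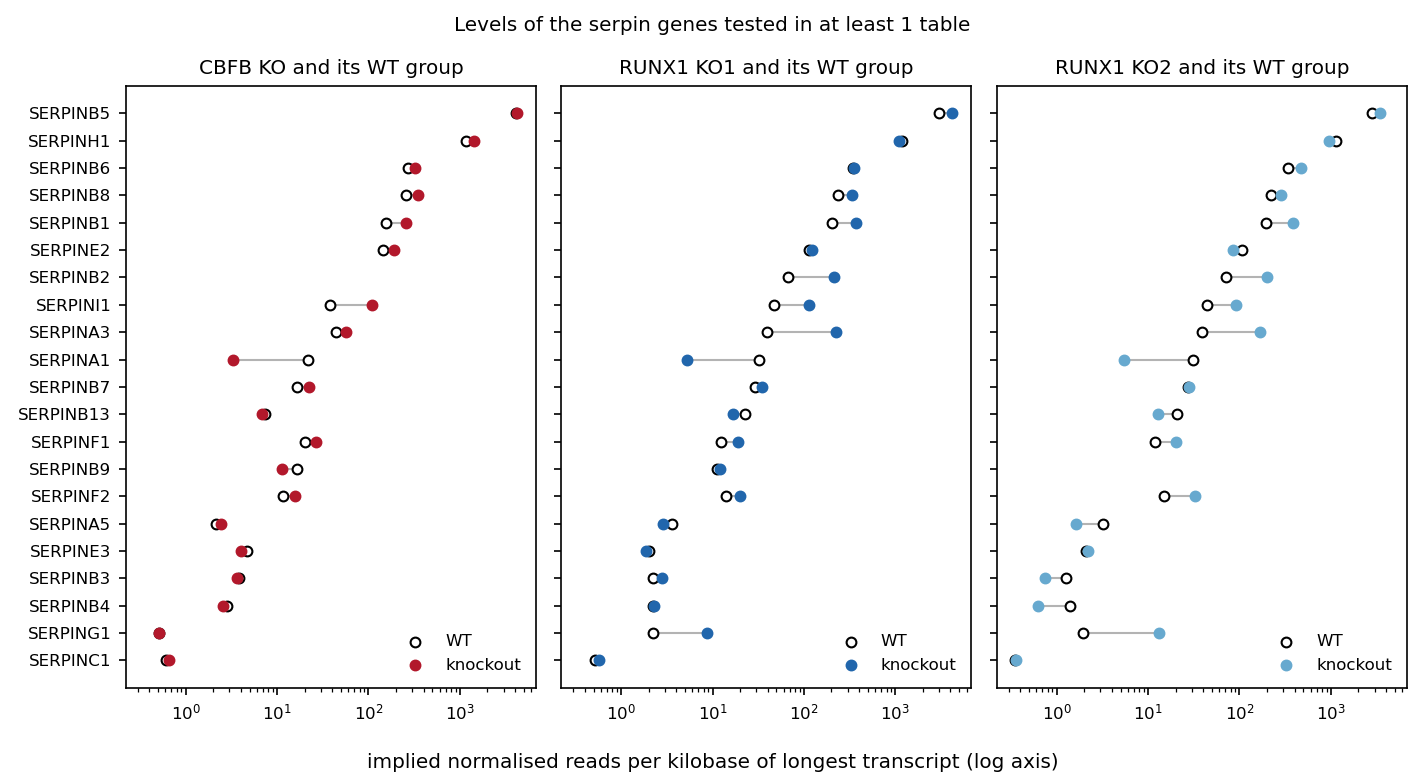
Implied normalised reads per kilobase (log axis) in WT (open) and knockout (filled) cells for the 21 serpins tested in at least 1 comparison, ordered by their mean WT level, with each group a single implied value and no error bar. SERPINB5 and SERPINH1 lie at the top, the lines of SERPINA1 point left in all 3 panels, and the longest lines to the right are those of SERPINA3 and SERPING1 in the RUNX1 panels.

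In CBFB KO cells, 2 of the 18 serpins tested were called, against 2.98% of all genes tested. The gene SERPINI1 rose (1 of 18, background 1.72%) and SERPINA1 fell (1 of 18, background 1.26%). In RUNX1 KO1, 5 of 21 were called (background 4.93%). They were SERPINA3, SERPINB2, SERPING1 and SERPINI1 higher (background 3.36%) and SERPINA1 lower (background 1.57%). In RUNX1 KO2, 8 of 19 were called (background 5.48%). They were SERPINA3, SERPINB2, SERPING1, SERPINI1, SERPINB1 and SERPINF2 higher (background 3.9%), and SERPINA1 and SERPINB4 lower (background 1.58%). At the adjusted p alone the counts were 4 (background 19.7%), 11 (background 39.5%) and 11 (background 14.8%). The median log2 fold change of the serpins tested was 0.26 in CBFB KO, 0.24 in RUNX1 KO1 and 0.26 in RUNX1 KO2. Over all genes tested it was -0.0087, -0.0017 and 0.021. With the call also asking for a mean of at least 100, the counts were 1, 3 and 4, since the means of SERPINA1, SERPING1, SERPINF2 and SERPINB4 lie under 100. For SERPINA1 in the RUNX1 comparisons that mean is pulled under 100 by the low knockout level, with implied WT levels above it.

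**Figure D2:**
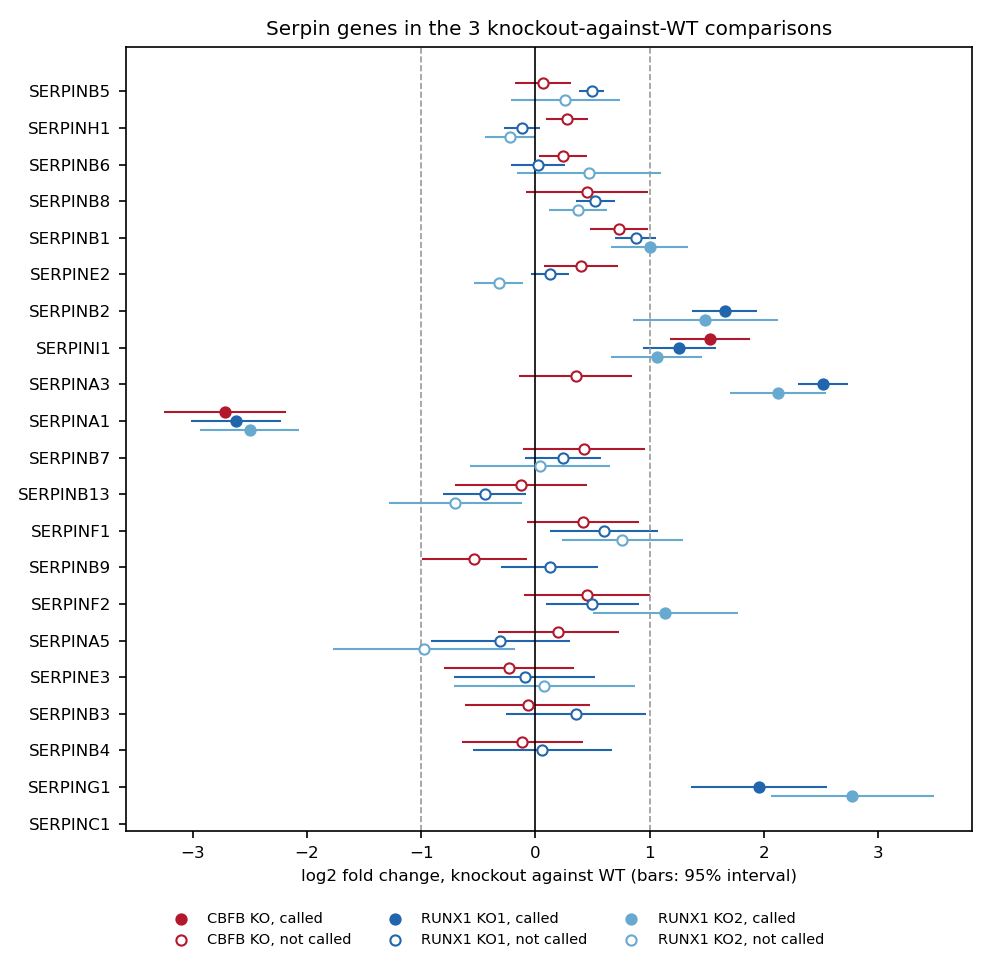
Log2 fold change of knockout against WT with its 95% interval for each serpin tested, ordered by WT level per kilobase; filled points were called, dashed lines mark a 2-fold change, and values where both groups stood at or under 3 normalised reads are left out. The intervals of SERPINA1 lie below -2 in all 3 comparisons, those of SERPINI1 lie above 0.6, and SERPINA3 lies above 1.7 in the RUNX1 clones while its CBFB KO interval includes 0.

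In all, 2 serpins were called in the same direction in all 3 comparisons, of 17 tested in all 3, against 1.49% of the 14500 genes tested in all 3. They were SERPINI1, higher (background 0.959%) and SERPINA1, lower (background 0.531%). SERPINA1 encodes alpha-1-antitrypsin, the plasma inhibitor of neutrophil elastase. Its implied level was 76.5 normalised reads in WT and 11.6 in CBFB KO, 113 and 18.4 with RUNX1 KO1, and 109 and 19.2 with RUNX1 KO2. It therefore fell 6.57-fold (log2 fold change -2.72 ± 0.27 SE, adjusted p = 2.27e-21), 6.15-fold (-2.62 ± 0.20, adjusted p = 1.61e-36) and 5.66-fold (-2.50 ± 0.22, adjusted p = 2.18e-27). The fall in CBFB KO minus that in RUNX1 KO1 was -0.10 on the log2 scale (95% interval -0.76 to 0.57), and minus that in RUNX1 KO2 it was -0.22 (-0.90 to 0.47). No stretch of its longest transcript was shared with another gene at 50 bases.

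SERPINI1, which encodes neuroserpin, an inhibitor of tissue-type plasminogen activator, moved the other way. Its implied level rose from 71.9 normalised reads in WT to 207 in CBFB KO, from 90.3 to 216 in RUNX1 KO1 and from 84.0 to 176 in RUNX1 KO2. The changes were 2.88-fold (log2 fold change 1.53 ± 0.18, adjusted p = 9.76e-16), 2.40-fold (1.26 ± 0.16, adjusted p = 1.66e-13) and 2.09-fold (1.06 ± 0.20, adjusted p = 4.04e-06). The difference between CBFB KO and the clones was 0.27 (95% interval -0.20 to 0.74) for RUNX1 KO1 and 0.46 (-0.07 to 0.99) for RUNX1 KO2, and neither passed the test.

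SERPINB1, an intracellular inhibitor of neutrophil serine proteases, rose in every comparison at the adjusted p and reached 2-fold only in RUNX1 KO2. Implied levels went from 406 to 675 normalised reads in CBFB KO, by 0.73 ± 0.13 on the log2 scale (adjusted p = 6.43e-07). They went from 531 to 978 in RUNX1 KO1, by 0.88 ± 0.09 (adjusted p = 3.61e-20). In RUNX1 KO2 they went from 509 to 1020, and the call rests on a change of 2.003-fold, just past the threshold (SE of the log2 fold change 0.17, adjusted p = 2.19e-07). Its differences between CBFB KO and the clones, -0.15 (95% interval -0.46 to 0.16) and -0.27 (-0.70 to 0.15), did not pass the test.

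Serpins that act in the plasminogen system included SERPINB2, SERPINE2 and SERPINF2, beside SERPINI1. SERPINB2 inhibits the urokinase-type and tissue-type plasminogen activators and remains largely inside the cell. It rose from 144 to 454 implied normalised reads in RUNX1 KO1, 3.15-fold (log2 fold change 1.66 ± 0.15, adjusted p = 9.01e-28). It rose from 154 to 433 in RUNX1 KO2, 2.81-fold (1.49 ± 0.32, adjusted p = 7.57e-05). It was not analysed here for CBFB KO. Of its 50-base stretches, 23.7% also occur in transcripts of SERPINB10, which overlaps it on the same strand, so reads of the 2 genes can be confused. SERPINB10 itself had means of 0.248 and 0.659. SERPINE2 (protease nexin-1) inhibits thrombin and the plasminogen activators. Its implied levels were 860 in WT and 1133 in CBFB KO (log2 fold change 0.40 ± 0.17, adjusted p = 0.0744). They were 674 and 737 with RUNX1 KO1 (0.13 ± 0.09, adjusted p = 0.242). In RUNX1 KO2 they fell from 632 to 506 (-0.32 ± 0.11, adjusted p = 0.0273). After correction for transcript length and GC, that fall did not pass (-0.20, adjusted p = 0.272) and the rise in CBFB KO did (0.47, adjusted p = 0.0292). For SERPINE2, the change in CBFB KO minus that in RUNX1 KO2 was 0.72 ± 0.20 (adjusted p = 0.0163), and minus that in RUNX1 KO1 it was 0.27 ± 0.19 (adjusted p = 0.397). SERPINF2, which encodes alpha-2-antiplasmin, the main plasma inhibitor of plasmin, was low. Its implied levels were 26.3 in WT and 36.0 in CBFB KO (log2 fold change 0.45 ± 0.28, adjusted p = 0.277). They rose from 32.3 to 45.6 in RUNX1 KO1 (0.50 ± 0.21, adjusted p = 0.0432) and from 34.2 to 75.3 in RUNX1 KO2 (1.14 ± 0.32, adjusted p = 0.00481). The call in RUNX1 KO2 was lost after correction for transcript length and GC (log2 fold change 0.95, adjusted p = 0.0269).

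The acute-phase serpin SERPINA3 (alpha-1-antichymotrypsin), an inhibitor of cathepsin G and chymase, had the largest rise of the 21 serpins tested in RUNX1 KO1. It went from an implied 104 to 594 normalised reads there, 5.73-fold (log2 fold change 2.52 ± 0.11, adjusted p = 9.92e-109). In RUNX1 KO2 it went from 103 to 447, 4.36-fold (2.12 ± 0.22, adjusted p = 9.67e-21). In CBFB KO the implied levels were 118 and 151, with a log2 fold change of 0.35 ± 0.25 (adjusted p = 0.367). The implied WT levels of SERPINA3 thus lay close to each other in the separately normalised comparisons, although both RUNX1 comparisons rest on the same WT libraries. The implied levels of the RUNX1 clones lay above that of CBFB KO. Its log2 fold change in CBFB KO minus that in RUNX1 KO1 was -2.17 ± 0.28 (95% interval -2.71 to -1.62, adjusted p = 2.15e-12). Minus that in RUNX1 KO2 it was -1.77 ± 0.33 (95% interval -2.42 to -1.12, adjusted p = 1.90e-05). Of the 50-base stretches of SERPINA3, 56.6% also occur in the overlapping same-strand transcript AL049839.2, and how the counting treated such reads is not given in the sources used here.

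SERPING1 encodes the C1 inhibitor of the complement and contact systems. It was low in WT cells, at implied levels of 4.94 and 4.31 normalised reads. It rose to 19.3 in RUNX1 KO1, 3.90-fold (log2 fold change 1.96 ± 0.30, adjusted p = 1.69e-09). It rose to 29.5 in RUNX1 KO2, 6.84-fold (2.77 ± 0.36, adjusted p = 1.69e-12). In the CBFB comparison its mean was 1.15 with no adjusted p, so a difference from the clones could not be tested.

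The 4 most abundant of these serpins by mean, SERPINB5, SERPINH1, SERPINB6 and SERPINB8, moved by less than 2-fold in each comparison. SERPINB5 stood at 11299 and 11827 implied normalised reads in WT and CBFB KO (log2 fold change 0.07 ± 0.13, adjusted p = 0.783). It rose from 8297 to 11685 in RUNX1 KO1 (0.49 ± 0.06, adjusted p = 2.50e-17). It stood at 7898 and 9480 with RUNX1 KO2 (0.26 ± 0.24, adjusted p = 0.6002). Its difference between CBFB KO and RUNX1 KO1 passed the test (-0.43 ± 0.14, adjusted p = 0.0253), and that between CBFB KO and RUNX1 KO2 did not (-0.20 ± 0.27, adjusted p = 0.999). SERPINH1 rose from 4095 to 4974 in CBFB KO (0.28 ± 0.09, adjusted p = 0.0183). Its implied levels were 4209 in WT and 3879 in RUNX1 KO1 (-0.12 ± 0.08, adjusted p = 0.246), and 3968 and 3400 with RUNX1 KO2 (-0.22 ± 0.11, adjusted p = 0.192). After correction for transcript length and GC, the rise in CBFB KO did not pass (0.20, adjusted p = 0.117). The fall in RUNX1 KO2 then did (-0.33, adjusted p = 0.0279). The CBFB KO response of SERPINH1 was above that of RUNX1 KO1 by 0.40 ± 0.12 (adjusted p = 0.0198) and above that of RUNX1 KO2 by 0.50 ± 0.15 (adjusted p = 0.0234). SERPINB6, which also inhibits trypsin-like proteases, did not pass the test in any comparison. Its means were 1660, 1960 and 2288, and its log2 fold changes 0.24 ± 0.11 (adjusted p = 0.0894), 0.02 ± 0.12 (adjusted p = 0.909) and 0.47 ± 0.32 (adjusted p = 0.422). SERPINB8, an intracellular inhibitor of furin with means of 1053, 998 and 883, stood at 0.45 ± 0.27 in CBFB KO (adjusted p = 0.262). It rose in RUNX1 KO1 (0.53 ± 0.09, adjusted p = 2.70e-08) and RUNX1 KO2 (0.37 ± 0.13, adjusted p = 0.0304). HMSD, which overlaps SERPINB8 on the same strand, shares 9.42% of its 50-base stretches.

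**Figure D3:**
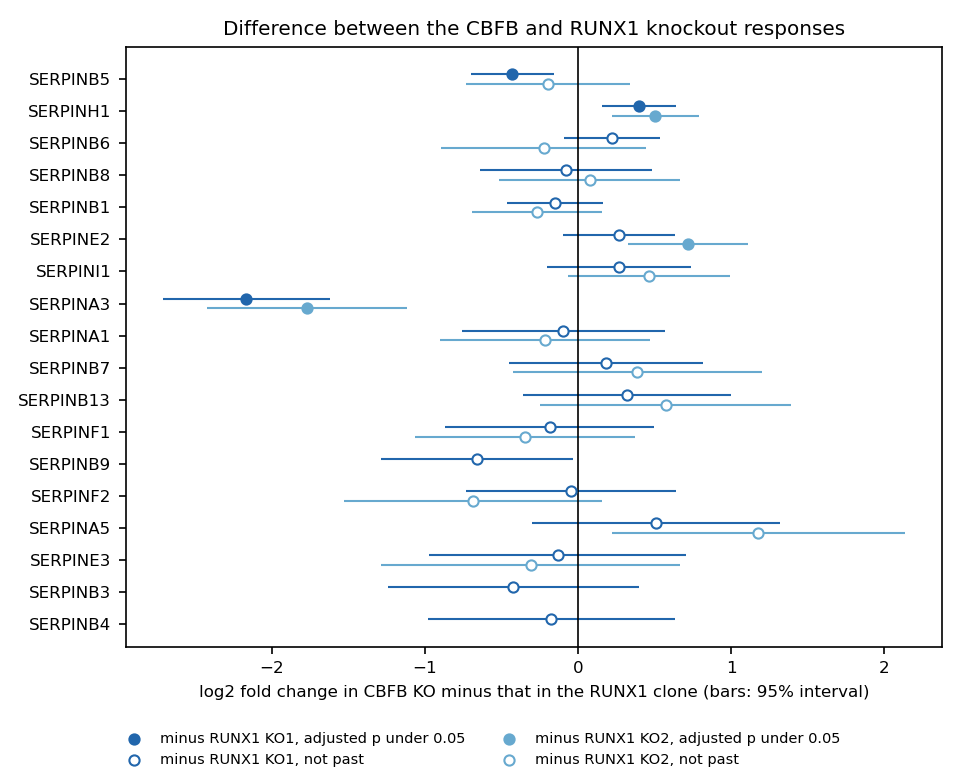
Log2 fold change in CBFB KO minus that in RUNX1 KO1 (dark) or RUNX1 KO2 (light), with the 95% interval, for serpins with a fold change on both sides; filled points have an adjusted p under 0.05. SERPINA3 lies at -2.17 and -1.77 against the clones and SERPINH1 lies between 0.40 and 0.50, while the intervals of SERPINA1 and SERPINI1 include 0.

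Across the family, 3 of the 18 serpins tested differed in response between CBFB KO and RUNX1 KO1, against 9.84% of all genes tested, in SERPINA3, SERPINB5 and SERPINH1. Against RUNX1 KO2, 3 of 17 differed (background 2.9%), namely SERPINA3, SERPINE2 and SERPINH1. With the SE of the difference multiplied by 1.5, a stand-in for spread between clones that these libraries cannot measure, SERPINA3 against RUNX1 KO1 was the 1 difference to pass, and 0 of 17 passed against RUNX1 KO2. At an unadjusted p under 0.05 of this normal test, 3 and 3 remained, in the genes just named. The share of all genes passing with the SE so multiplied was not computed, so these counts have no background here.

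The remaining members were low. Means are given in the order CBFB KO, RUNX1 KO1 and RUNX1 KO2. Of clade B, SERPINB7 (42.5, 70.2 and 60.6) and SERPINB3, a squamous cell carcinoma antigen (6.66, 4.48 and 1.78), did not pass at the adjusted p in any comparison. Neither did SERPINB9, the granzyme B inhibitor, at means of 57.4 and 47.6 (not analysed here for RUNX1 KO2). SERPINB13 (22.8, 63.0 and 53.7), an epidermal inhibitor of cathepsins, fell in RUNX1 KO1 (-0.44 ± 0.19, adjusted p = 0.0429). It stood at -0.13 ± 0.29 in CBFB KO (adjusted p = 0.829) and -0.70 ± 0.30 in RUNX1 KO2 (adjusted p = 0.103). SERPINB4, the close relative of SERPINB3, was called lower in RUNX1 KO2 (adjusted p = 0.0235) at implied levels of 2.44 and 1.10 normalised reads. Both lie under the 3 reads below which no fold is given here. The call was lost after correction for length and GC (adjusted p = 0.0682). In CBFB KO and RUNX1 KO1 its log2 fold changes were -0.11 ± 0.27 (adjusted p = 0.834) and 0.06 ± 0.31 (adjusted p = 0.902) around means of 4.73 and 3.95. SERPINB3 and SERPINB4 share 24% of their 50-base stretches, so reads can be split between them. SERPINF1 (pigment epithelium-derived factor), with means of 36.4, 24.3 and 24.7, rose in RUNX1 KO1 (0.60 ± 0.24, adjusted p = 0.0355) and RUNX1 KO2 (0.76 ± 0.27, adjusted p = 0.0349). It stood at 0.42 ± 0.25 in CBFB KO (adjusted p = 0.255). SERPINA5, the protein C inhibitor (5.37, 7.55 and 5.64), and SERPINE3 (9.96, 4.48 and 4.91), 30.3% of whose exonic bases lie opposite INTS6 exons, did not pass in any comparison. SERPINC1, antithrombin, was tested only with RUNX1 KO1, at a mean of 0.866. SERPINA4, SERPINA6, SERPINA9, SERPINA10, SERPINB10, SERPINB12 and SERPIND1 had no adjusted p in any comparison and means of at most 1.07.

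Serpin genes lie in clusters, of which RefSeq's order gives 10 on chromosome 18 (clade B), 9 on chromosome 14 (clade A) and 3 on chromosome 6 (clade B). Neighbouring members did not all change together. On chromosome 18, SERPINB2 was called higher in both RUNX1 clones and lies between SERPINB7 and the barely detected SERPINB10, beyond which lies SERPINB8. The log2 fold changes of SERPINB7 and SERPINB8 were 0.24 and 0.53 in RUNX1 KO1 and 0.04 and 0.37 in RUNX1 KO2. On chromosome 14, SERPINA1 fell and SERPINA3 rose in both clones, and SERPINA5, next to SERPINA3, stood at -0.31 ± 0.31 and -0.97 ± 0.41. On chromosome 6, SERPINB1 rose in each comparison, whereas SERPINB9 and SERPINB6 did not pass the test.

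**Figure D4:**
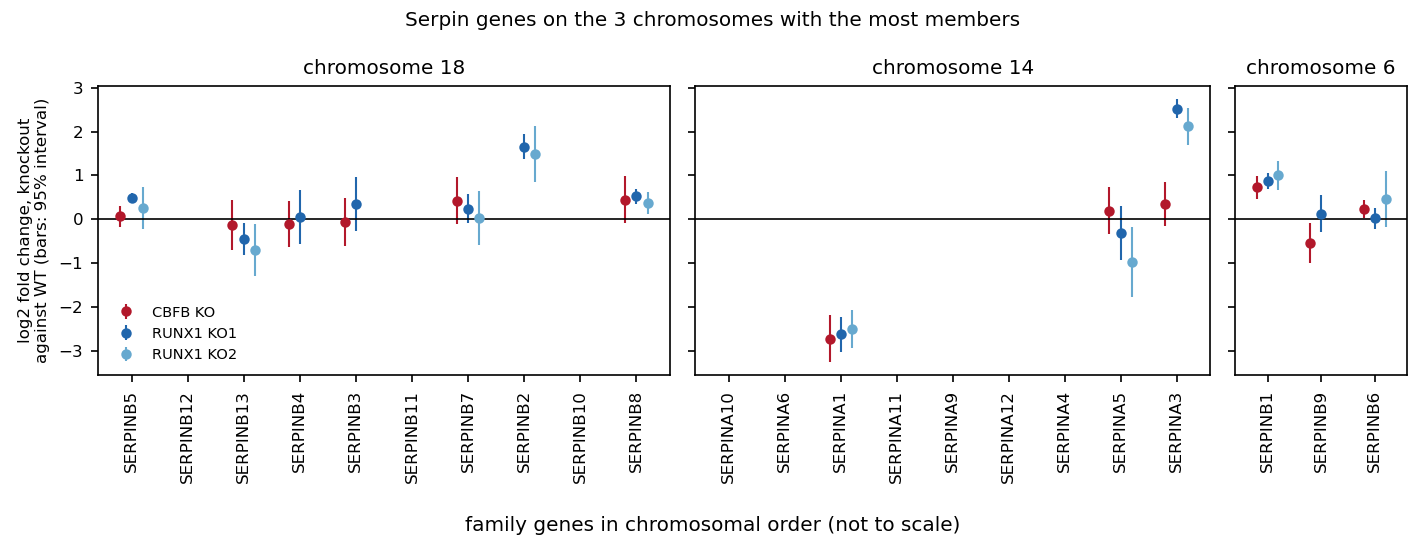
Log2 fold change of knockout against WT with its 95% interval for family genes in their order along chromosomes 18, 14 and 6, equally spaced and not to scale; genes with no point were not tested, were not analysed here or stood at or under 3 normalised reads in both groups. SERPINA1 and SERPINA3 point in opposite directions on chromosome 14, and SERPINB2 stands above its neighbours on chromosome 18.

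Genes that act beside the serpins were read from 3 further lists. Of 49 proteases and receptors listed, 2 of 34 tested rose past the call in CBFB KO, 7 of 41 in RUNX1 KO1 and 7 of 40 in RUNX1 KO2, where 1.72%, 3.36% and 3.9% of all genes tested did. Those called lower numbered 0, 1 and 0 (1.26%, 1.57% and 1.58% of all genes), and the median log2 fold changes were 0.30, 0.33 and 0.52. PLAT, the tissue-type plasminogen activator inhibited by SERPINI1, was the 1 gene of this list called in all 3 comparisons. It rose by 1.26 ± 0.19 (adjusted p = 3.26e-09), 1.18 ± 0.08 (adjusted p = 2.72e-46) and 1.13 ± 0.18 (adjusted p = 1.94e-08). The 4 genes of this list that were most abundant in each comparison changed by less than 2-fold: tissue factor F3 (-0.14 ± 0.29, 0.09 ± 0.06 and -0.28 ± 0.25), cathepsin D (CTSD, -0.25 ± 0.15, -0.54 ± 0.08 and 0.10 ± 0.25), cathepsin B (CTSB, 0.39 ± 0.12, 0.62 ± 0.06 and 0.50 ± 0.14) and matriptase (ST14). ST14 rose in each, by 0.83 ± 0.08 (adjusted p = 1.62e-24), 0.46 ± 0.06 (adjusted p = 8.89e-12) and 0.63 ± 0.18 (adjusted p = 0.00548). The list of protease inhibitors outside the family held 26 genes, among them BST2, which is not usually classed as a protease inhibitor and was not called. Of this list, 2 of 19 tested rose past the call in CBFB KO, 4 of 22 in RUNX1 KO1 and 4 of 19 in RUNX1 KO2, beside the same shares of all genes. Those called lower numbered 0 in each, and the medians were 0.31, 0.19 and 0.36. Its most abundant members, SPINT2 (0.64 ± 0.08, 0.22 ± 0.11 and 0.50 ± 0.23), TIMP1 (-0.67 ± 0.17, -0.65 ± 0.11 and 0.09 ± 0.37) and CAST (0.44 ± 0.09, 0.51 ± 0.05 and 0.36 ± 0.19), were not called. At the DESeq2 adjusted p alone, 13, 19 and 14 proteases and 9, 9 and 5 other inhibitors rose (11.7%, 19.7% and 8.76% of all genes). At the same threshold 1, 4 and 2 proteases and 2, 2 and 0 other inhibitors fell (7.97%, 19.9% and 6.08% of all genes). At an unadjusted p under 0.05 those that fell numbered 2, 4 and 2, and 2, 4 and 0. The share of all genes at that unadjusted threshold was not computed, so these last counts have no background here.

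Beside the chaperone SERPINH1, 16 genes of procollagen folding and modification were read, all tested in all 3 comparisons. This list holds no collagen genes, so it does not describe the procollagens that SERPINH1 binds. In CBFB KO 0 were called higher and 1 lower, beside 5 and 3 at the DESeq2 adjusted p alone and 7 and 3 at an unadjusted p under 0.05. Each RUNX1 clone had 1 called higher and 1 lower, beside 4 and 5 at the adjusted p alone in RUNX1 KO1 and 4 and 2 in RUNX1 KO2. The shares of all genes called or past the adjusted p are those given for the proteases, and the medians were 0.15, 0.0065 and 0.016. For the unadjusted p no share of all genes was computed. P3H2, a prolyl hydroxylase, was called lower in all 3. Its log2 fold changes were -1.17 ± 0.18 (adjusted p = 7.09e-09), -2.64 ± 0.08 (adjusted p = 1.81e-210) and -2.38 ± 0.10 (adjusted p = 2.31e-113). The most abundant 3 genes, P4HB (0.31 ± 0.11, 0.16 ± 0.08 and 0.15 ± 0.16), PPIB (0.12 ± 0.07, -0.32 ± 0.10 and 0.22 ± 0.34) and COLGALT1 (0.49 ± 0.08, 0.50 ± 0.09 and 0.40 ± 0.12), were not called.

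**Figure D5:**
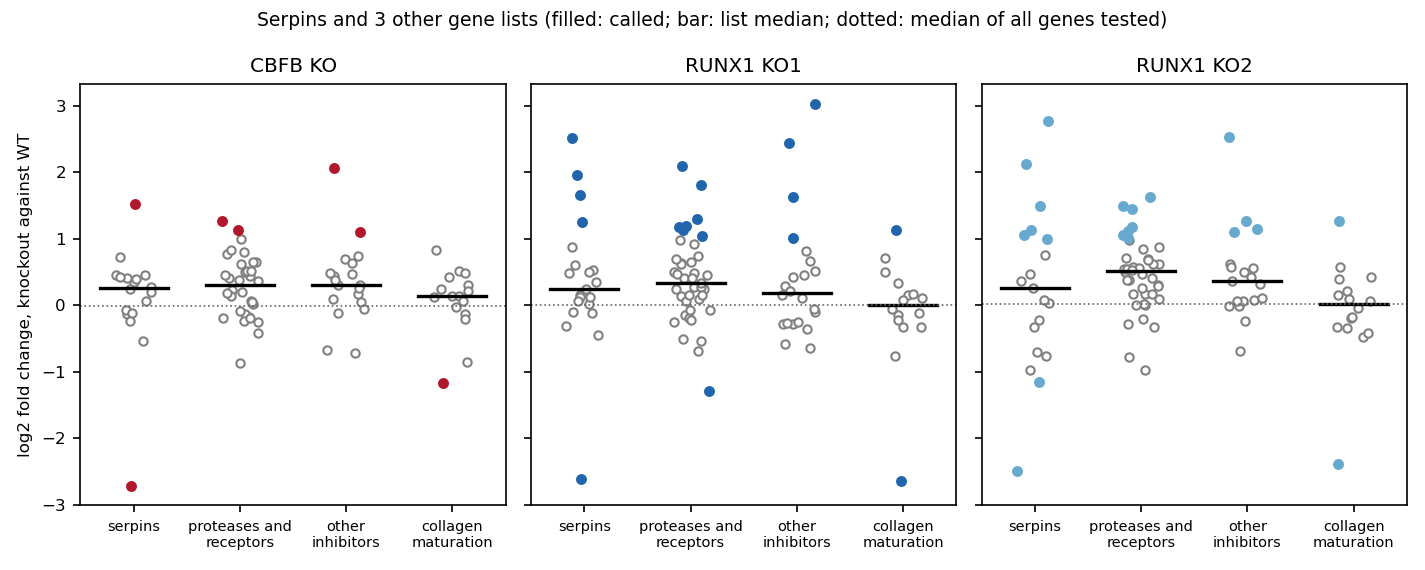
Log2 fold changes of the serpins and of the 3 other lists (proteases and receptors, other inhibitors, collagen maturation) in each comparison, 1 point a gene tested, filled where called, with the list's median as a bar and the median of all genes tested as a dotted line. Serpin medians of 0.24 to 0.26 lie beside protease medians of 0.30 to 0.52, and SERPINA1 is the lowest serpin in each panel.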

How the data were processed

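RNA sequencing covered 18 libraries of MCF10A cells in 5 groups (CBFB KO and its WT, 3 each; RUNX1 KO1, RUNX1 KO2 and their WT, 4 each). The submitters' processing notes name Trimmomatic, STAR, DESeq2 and build hg19; the counter, the annotation, its strand setting and tool versions are not given in the sources used here. The sample labels name an mRNA kit and the study's methods an rRNA removal step, and which applied was not resolved. The authors deposited, per comparison, a gene's mean normalised signal over the libraries (DESeq2's base mean), a shrunken log2 fold change with its SE on the log2 scale, a score (the Wald statistic, equal to log2 fold change over SE) and a p-value with its Benjamini-Hochberg adjusted p-value. These deposited comparison columns are the values analysed; 0 columns hold values per sample, so depth per library, intervals for counts and the spread between repeats could not be shown.

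Implied group levels are 2 × mean / (1 + fold) for WT and fold times that for the knockout, with equal group sizes; they are approximate because the fold changes are shrunk. Calls used an adjusted p under 0.05 and a change of at least 2-fold, the thresholds of the study's methods; 95% intervals are normal. CBFB KO was compared with each RUNX1 clone by the difference of log2 fold changes over the combined SE (normal test, two-sided, Benjamini-Hochberg over all genes tested in both), which was tested on simulated data. Those data were drawn without shrinkage, so its effect on the differences and their intervals was not tested. Transcript length, GC and shared 50-base stretches, each from a gene's longest transcript, and exon overlaps came from GENCODE 29, upstream sequence from RefSeq. Of the genes that fit the naming rule, 1 is not reported here. Members with full values are those with a mean of at least 100, called, or differing between CBFB KO and a RUNX1 clone. The members and lists were chosen with earlier results of these data known. Computations used Python 3.11.15, pandas 2.3.3, numpy 2.4.6 and scipy 1.17.1.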

Additional observations from a re-analysis of the deposited data

Results flagged for a closer look

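Responses that differed between CBFB KO and a RUNX1 clone by the test of the difference were marked for a closer look. They are the log2 fold change in CBFB KO minus that in the clone. SERPINA3 gave -2.17 against RUNX1 KO1 and -1.77 against RUNX1 KO2. SERPINB5 gave -0.43 against RUNX1 KO1. SERPINE2 gave 0.72 against RUNX1 KO2. SERPINH1 gave 0.40 against RUNX1 KO1 and 0.50 against RUNX1 KO2. The CBFB and RUNX1 comparisons rest on different WT libraries and were normalised separately, and set of libraries, clone and deleted gene cannot be told apart.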

How the results depend on the processing

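No paired analysis was possible because the deposited tables hold no values per library, and leaving out each repeat in turn could not be run for the same reason. Counts of called serpins were 2 (CBFB KO), 5 (RUNX1 KO1), 8 (RUNX1 KO2) and 2 (all 3). Without a fold threshold they were 4 for CBFB KO and 11 for RUNX1 KO1. At a 4-fold threshold they were 1, 2, 3 and 1. With a mean of at least 100 they were 1 (CBFB KO), 3 (RUNX1 KO1), 4 (RUNX1 KO2) and 1 (all 3). The count of serpins whose response differed from RUNX1 KO1 went from 3 to 1 at an adjusted p under 0.01 and to 1 with the SE multiplied by 1.5. For RUNX1 KO2 it went from 3 to 1 and to 0. No share of all genes was computed at an adjusted p under 0.01 or with the SE so multiplied. Under a fold threshold of 1.5, centring on the median gene and removal of a length and GC trend, the counts of called serpins stayed within 1.5 times the main ones. The counts of differing responses, recomputed with centring and with a mean of at least 100, were 3 and 3 under both. Of 38 fold changes of members given in full, SERPINB6 in RUNX1 KO1 changed sign once the length and GC trend was removed (-0.054, not past the test in either form). An adjusted p under 0.05 was then lost for SERPINH1 in CBFB KO (0.117) and, in RUNX1 KO2, for SERPINE2 (0.272) and SERPINB4 (0.0682). Newly past it were SERPINE2 (0.0292) and SERPINB6 (0.0349) in CBFB KO and SERPINH1 (0.0279) in RUNX1 KO2. The cause of these shifts was not tested. The test of differing responses was not rerun with that trend removed. No library could be left out, so each value is that of a whole group, and abundance limits the calls of SERPING1, SERPINF2 and SERPINB4.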

Other observations

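Several genes of the protease and inhibitor lists are given here as values and were chosen after their values were seen. PLAU, the urokinase-type plasminogen activator that SERPINB2 inhibits, rose by 2.09 ± 0.09 on the log2 scale in RUNX1 KO1 (adjusted p = 2.04e-113) and by 1.63 ± 0.10 in RUNX1 KO2 (adjusted p = 1.48e-56). It was not analysed here for CBFB KO. LRP1, the receptor that clears serpin-protease complexes, was called higher in both clones (1.20 ± 0.17 and 1.01 ± 0.29) and rose by less than 2-fold in CBFB KO (0.80 ± 0.19, adjusted p = 4.68e-04). A2ML1, an alpha-2-macroglobulin-type inhibitor, was at 3.04 ± 0.11 and 2.53 ± 0.25 in the clones and at 0.09 ± 0.25 in CBFB KO (adjusted p = 0.860). CST6, a cystatin, was called higher in CBFB KO (2.07 ± 0.22) and RUNX1 KO1 (2.44 ± 0.12) and was not analysed here for RUNX1 KO2. KLK7, a chymotrypsin-like kallikrein, was called lower in RUNX1 KO1 (-1.28 ± 0.15) and fell by less than 2-fold in RUNX1 KO2 (-0.77 ± 0.22, adjusted p = 0.00442). Its mean was 6.17 in the CBFB comparison and 196 and 209 in the RUNX1 comparisons, in tables normalised separately.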
